A study of Danio rerio with 12 samples.

Results

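To ask whether the RNA of the proteasome changes when Elmo1, a partner of Dock proteins in the activation of Rac1, is lost, transcripts of proteasome subunits and of their regulators were examined in whole zebrafish larvae. Members were all gene identifiers whose symbol, case ignored, begins with PSMA, PSMB, PSMC, PSMD, PSME, PSMF or PSMG followed by a number and that had at least 10 expected counts in at least 6 of the 12 samples. Of 32520 identifiers, 29201 had a symbol, 59 symbols had such a name, and 53 identifiers were members. Of these, 51 are proteasome genes and the other 2, PSMC3IP and PSME3IP1, match only in name, as they encode partner proteins of a proteasome gene product and not subunits.

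The study comprised 6 elmo1+/+ and 6 elmo1-/- samples, each a pool of 30 larvae taken at 120 hours post fertilization (hpf). Both genotypes carried the endothelial reporter transgene Tg(fli1:EGFP), in whose line the elmo1 mutation was made with CRISPR/Cas9 as a small insertion in exon 2 that shifts the reading frame. The elmo1-/- larvae are homozygous knockouts in the titles, while a second label and the column names call them hz, which is not explained. The labels do not say whether the pools of one genotype came from separate clutches, so p-values measure the spread between these pools only, and in a whole larva fewer cells of a type and less RNA per cell cannot be told apart.

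Total expected counts were between 20784515 and 21808513 per sample. As the mutation is a small insertion, its RNA need not be lost. The elmo1 transcript itself lay between 121.7 and 143.3 CPM (counts per 1000000 counts) in elmo1+/+ and between 97.1 and 120 CPM in elmo1-/- samples, a log2 fold change of -0.26 (SE 0.059, adjusted p = 0.137, edgeR). Of 41 identifiers of tissue markers, 37 had a median of at least 10 counts. After adjustment 0 differed between genotypes in edgeR's test, beside 0.234% of all genes tested. The 3 matched markers of NK and T effector cells summed to at most 0.61 TPM.

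The proteasome is the large protease that degrades proteins tagged with ubiquitin. Its barrel, the 20S core particle, is built of outer rings of alpha subunits and inner rings of beta subunits, of which beta positions 1, 2 and 5 carry the active sites. The 19S regulatory particle caps the barrel, with a ring of ATPases (Rpt) that unfolds and threads the substrate and non-ATPase subunits (Rpn) that bind ubiquitin, remove it and hold the lid together. Dedicated chaperones assemble both particles, and other activators can dock to the barrel in place of 19S. In vertebrates, PSMB8, PSMB9 and PSMB10 replace the constitutive catalytic beta subunits in immune cells and under interferon.

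By role, the members comprised 10 genes of the alpha ring, 7 of the constitutive beta ring, 1 inducible beta subunit, 7 ATPases and 14 non-ATPases of 19S, 6 assembly chaperones, 5 activators and 1 inhibitor. Every one of the 14 positions of the 20S core and each of the 17 positions counted here for the 19S particle had at least 1 member. A position of the alpha ring that mammals fill with PSMA7 was here held by PSMA8, for which RefSeq lists psma7 as another name. All 53 members passed the filter on low counts and were tested. Without PSMC3IP and PSME3IP1, the other 51 together took between 0.208% and 0.252% of TPM (transcripts per 1000000 transcripts, a level per length) in a sample.

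6 further genes with such a name were under the count minimum, and all are special beta subunits. PSMB8, the inducible counterpart at beta position 5, had between 1 and 11 expected counts per sample, and PSMB9, its counterpart at beta position 1, between 2 and 13. The others were psmb12 and psmb13a, with at most 8 and 9 counts, and PSMB11 and psmb11b, which carry the name of the thymus-specific beta subunit of mammals. PSMB11 was at 0 in 10 of 12 samples. No fold change is given for these genes.

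Levels of the subunits were compared as TPM. Within the 20S core, PSMB2 (beta position 4) stood highest at 140.7 ± 8.7 TPM (SD, n = 12) and was first in 11 of 12 samples. PSMB7, which carries the trypsin-like active site at beta position 2, followed with 134.1 ± 7.0 TPM and was first in the remaining sample. PSMB1 at 106.5 ± 8.6 TPM lay below PSMB7 in 12 of 12 samples. At the other end, the copies of PSMA2 summed to 54.4 ± 3.8 TPM, and PSMA1 stood at 31.3 ± 2.3 TPM and was last in 12 of 12 samples, at 0.385 times the median position of its own sample on average.

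Between these ends, some neighbours kept their order in most samples and others did not. PSMB3 exceeded PSMA5 in 11 of 12 samples, and PSMA8 exceeded PSMA4, PSMB6 exceeded the summed copies of PSMA6 and PSMB5 exceeded PSMB3 in 10 of 12 each. PSMB4 exceeded PSMA8 in 5 of 12 samples, that is in 5 of 6 elmo1+/+ samples and in 0 of 6 elmo1-/- samples. Only this pair is given by genotype, and it rests on the PSMB4 values compared between genotypes below. PSMA4 exceeded PSMA3 in 7, PSMA3 exceeded PSMB6 in 4, and the summed copies of PSMA6 exceeded PSMB5 in 4, so these pairs did not differ beyond their spread. The catalytic subunits PSMB6 (caspase-like, beta position 1), PSMB7 and PSMB5 (chymotrypsin-like, beta position 5) had means of 81.4, 134.1 and 76.3 TPM. Thus the active-site subunits were not at one level, with PSMB7 above the other two catalytic subunits.

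Within the 19S particle, PSMD3, a subunit of the lid, stood highest at 71.7 ± 4.7 TPM and was first in 11 of 12 samples. The ubiquitin receptor PSMD4, with its copy psmd4b, followed at 63.9 ± 6.4 TPM, and PSMD14, the deubiquitinase that removes ubiquitin chains from the substrate, reached 60.4 ± 4.7 TPM. The lid subunit PSMD12 stood lowest at 25.9 ± 2.1 TPM and was last in 12 of 12 samples, below PSMC6 at 39.5 ± 3.8 TPM. The 6 ATPase positions, which occur once each in the ring, spanned 39.5 TPM for PSMC6 to 56.9 TPM for the summed copies of PSMC1. PSMC5 exceeded PSMC2 in 6 of 12 samples and PSMC3 exceeded PSMC4 in 5 of 12, so these ATPases did not differ beyond their spread.

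**Figure D1:**
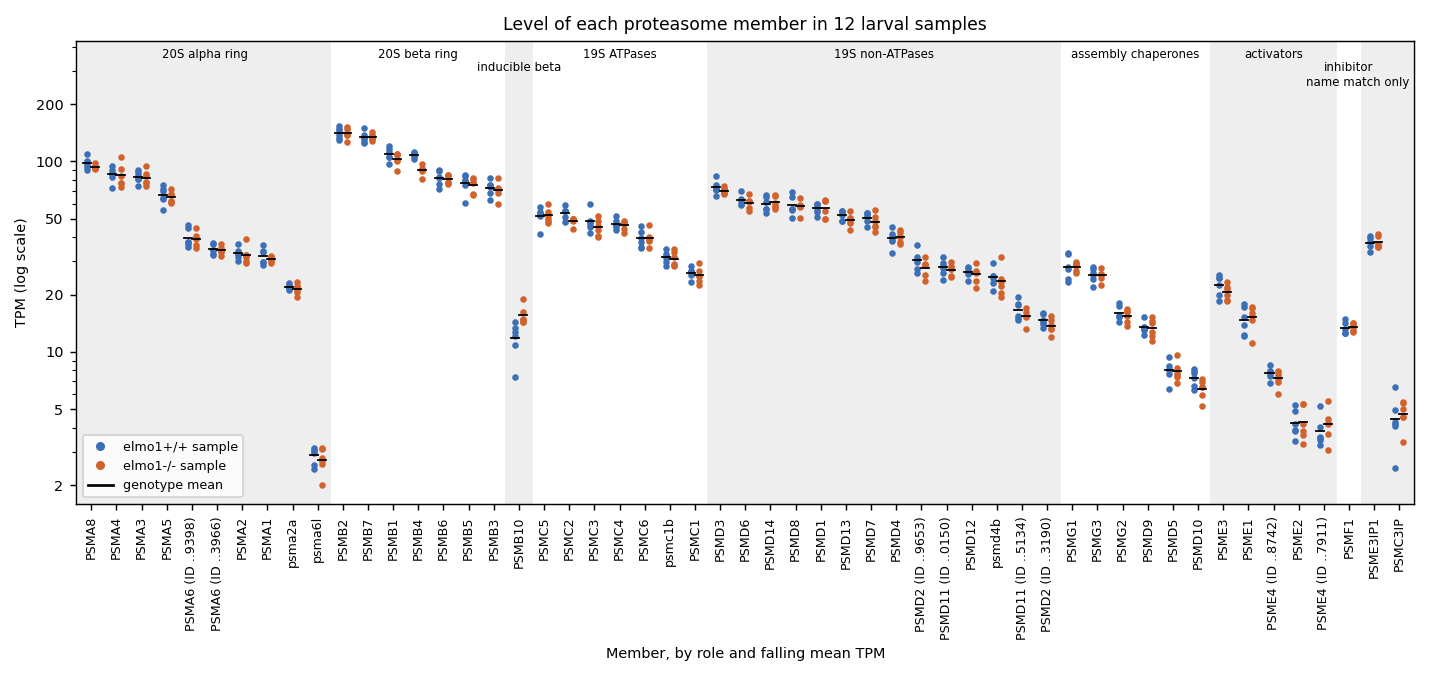
Level of each of the 53 members in TPM on a log scale, grouped by role and ordered by mean within a role. Each point is 1 of 6 samples per genotype (blue elmo1+/+, orange elmo1-/-) and each bar a genotype mean; most 20S and 19S members lie between 20 and 150 TPM, while PSMB10 and the chaperones, activators and inhibitor lie at or below 28.0 TPM on average.

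The order rests on division by transcript length. By CPM, which is not divided by length, 0 of 14 positions of the 20S core and 1 of 17 of the 19S particle had the rank they have by TPM, and PSMA1, last by TPM, was at rank 7. The order therefore holds only as far as the effective lengths assigned by the authors' tool hold.

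In TPM, the core was above the cap in every sample. The median position of the 20S core lay between 73.5 and 89.7 TPM and that of the 19S particle between 47.5 and 59.1 TPM. Their ratio was between 1.49 and 1.59 in elmo1+/+ samples and between 1.54 and 1.65 in elmo1-/- samples, with means of 1.53 ± 0.034 and 1.596 ± 0.044 (SD, n = 6 each). The ratios of both genotypes overlapped, and no test was made on this score over the members. This gap, too, rests on division by length, as in CPM the ratio of the medians lay between 0.925 and 1.049, with the core above the cap in 4 of 12 samples.

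Several positions hold more than 1 identifier. The 2 identifiers named PSMD2, the large scaffold Rpn1, took 67.2% ± 2.2 and 32.8% ± 2.2 of the summed TPM in elmo1+/+ samples (SD, n = 6), and 66.9% ± 1.5 and 33.1% ± 1.5 in elmo1-/- samples. PSMD11 was divided into 37.5% and 62.5% in elmo1+/+ and into 36.4% and 63.6% in elmo1-/- samples. PSMD4 held 61.6% ± 0.75 of the sum with psmd4b in elmo1+/+ and 63.4% ± 2.7 in elmo1-/- samples. PSMC1 held 45.4% and 45.03% with psmc1b, and PSMA2 held 59.9% and 60.2% with psma2a, in the order elmo1+/+ and elmo1-/-. At alpha position 1, the 2 identifiers named PSMA6 held 44.9% and 51.4% and psma6l 3.7% in elmo1+/+ samples. The identifiers of each position were thus all assigned counts, in shares that moved by less than 4 percentage points between genotypes, the 2 PSME4 identifiers included. RefSeq lists a single psmd2, so the 2 PSMD2 identifiers may not be separate gene copies. Reads that both copies could have produced were assigned by estimation, so the share of each copy is less certain than their sum.

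Between genotypes, 0 of 53 members differed at an adjusted p under 0.05 in the quasi-likelihood test of edgeR (Benjamini-Hochberg over 21830 genes), where 51 genes, or 0.234%, did. At an unadjusted p under 0.05 there were 2 members, PSMB4 and PSMB10, or 3.77%, beside 6.16% of all genes tested. The CPM of the genotypes overlapped for all 53 members, while 0.513% of all genes tested did not overlap. With DESeq2, too, 0 members passed, beside 0.444% of genes. With 53 members and such low shares over all genes, these counts do not set the members apart from the other genes tested.

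The fold changes of most members were close to 0. In 48 of 53 members (90.6%) the log2 fold change was within 0.1 of 0, beside 62.7% of all genes tested. Among genes with a mean between 20 and 150 CPM, 39 of 41 members (95.1%) and 82.6% of 6523 genes were within 0.1, at a median within-genotype SD of log2 CPM of 0.113 for the members and 0.109 for the genes. The log2 fold change was above 0 in 31 members and below 0 in 22. The median was 0.011 for the 18 members of the 20S core, -0.0061 for the 21 of the 19S particle and 0.028 for the 12 chaperones, activators and the inhibitor, against 0.0043 for all genes tested. Under the other scalings, filters and tests these medians lay between -0.029 and 0.015, between -0.046 and -0.00097 and between -0.012 and 0.029 in the same order. When 1 sample was left out they lay between -0.024 and 0.034, between -0.043 and 0.017 and between -0.00019 and 0.042, so none of the medians had a fixed sign.

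**Figure D2:**
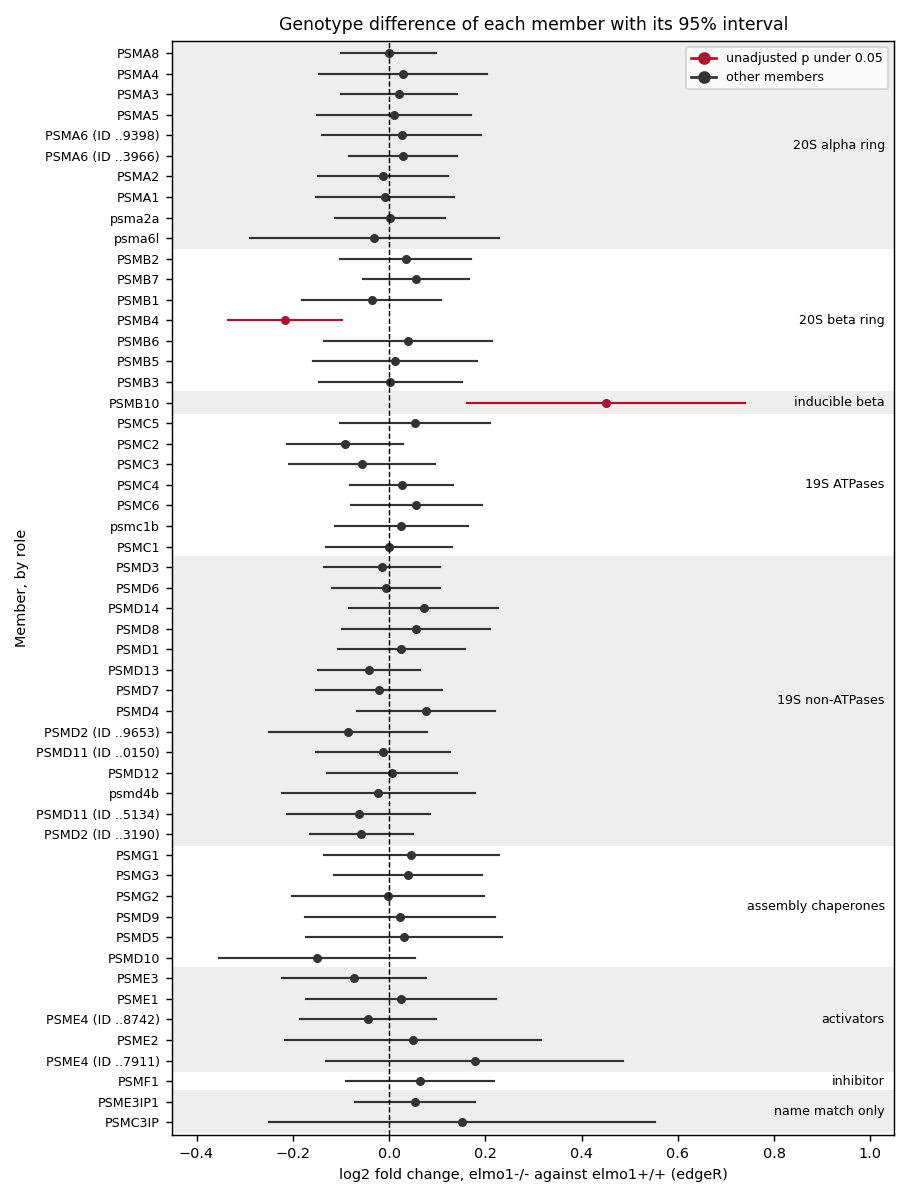
log2 fold change of each member (elmo1-/- against elmo1+/+, points) with its 95% interval (lines) from edgeR, grouped by role. The intervals of PSMB4 at -0.22 and PSMB10 at 0.45 (red, unadjusted p under 0.05) lie to one side of 0, and those of the other members include 0.

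PSMB4, a structural subunit of the beta ring at position 7, was the member with the lowest p. Its lowest, median and highest values were 63.1, 72.0 and 74.2 CPM in elmo1+/+ samples and 54.7, 61.1 and 65.8 CPM in elmo1-/- samples. All 6 elmo1-/- samples lay below the elmo1+/+ mean and 4 lay below the lowest elmo1+/+ sample, elmo1+/+ sample 1, so the groups overlapped narrowly. The means were 70.7 ± 4.3 and 60.8 ± 3.8 CPM (SD, n = 6 each). The log2 fold change was -0.22 (SE 0.055, 95% interval -0.33 to -0.099, unadjusted p = 0.00139), and did not pass at an adjusted p of 0.259 in edgeR. The two-sided exact permutation test over samples gave p = 0.00649, where the smallest p is 0.00216 and the Benjamini-Hochberg value over all genes tested was 0.537. Only genes without overlap, 0.513% of those tested, can reach that smallest p, so no gene could pass this adjustment.

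In TPM the separation of PSMB4 was complete. elmo1+/+ samples lay between 102.9 and 112.2 TPM with a median of 107.9, and elmo1-/- samples between 80.8 and 96.5 with a median of 91.5. Of all genes tested, 0.536% did not overlap in TPM. limma-trend on log2(TPM + 1) gave a log2 fold change of -0.26 and called PSMB4 at an adjusted p of 0.0484, as 1 of 53 members, beside 0.192% of genes. In that fit the median of all genes tested was -0.038, against 0.0043 in edgeR. With a filter at 1 TPM in 6 samples the adjusted p was 0.0559. These fits differ from edgeR in unit, scaling and test together. Over all alternatives, DESeq2 at 0.0585 included, the adjusted p of PSMB4 lay between 0.0470 and 0.487.

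Beside the rest of the core, PSMB4 was 1.35 ± 0.10 times the median of the other 20S positions in elmo1+/+ samples and 1.15 ± 0.075 times in elmo1-/- samples (SD, n = 6 each). The range was 1.27 to 1.54 in the former and 1.04 to 1.23 in the latter, so the ratios did not overlap. This ratio was chosen after its values were seen and is given without a test. By RefSeq's annotation of GRCz12tu, PSMB4 is on chromosome 19, as is elmo1, with 97 protein-coding genes between them among 957 on that chromosome. PSMD3, PSMB2 and PSMG2 are on the same chromosome, with 225, 190 and 362 genes between them and elmo1, and had log2 fold changes of -0.015, 0.035 and -0.0020. A part of chromosome position in the value of PSMB4 was not tested.

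**Figure D3:**
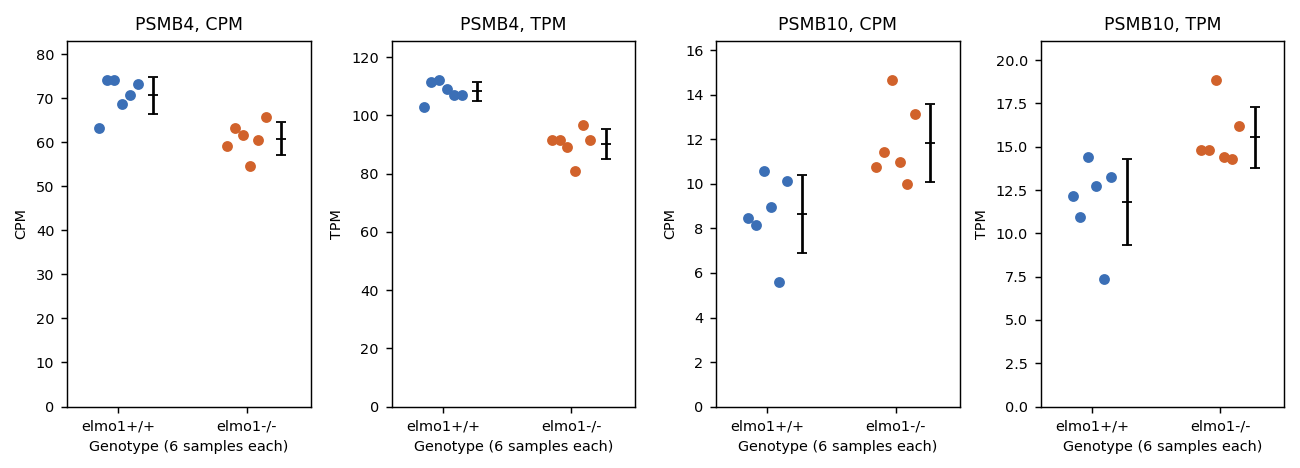
PSMB4 and PSMB10 in each sample, in CPM and in TPM, on axes that start at 0. Points are the 6 samples of a genotype and the bars to their right the mean ± SD; PSMB4 is lower in elmo1-/- samples without overlap in TPM (highest elmo1-/- 96.5, lowest elmo1+/+ 102.9) and PSMB10 is higher with overlap.

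PSMB10, the inducible counterpart of PSMB7 at beta position 2, had the largest fold change among the members. Its lowest, median and highest values were 5.59, 8.72 and 10.6 CPM in elmo1+/+ samples and 9.99, 11.2 and 14.7 CPM in elmo1-/- samples. All 6 elmo1-/- samples lay above the elmo1+/+ mean and 5 lay above the highest elmo1+/+ sample. The means were 8.65 ± 1.77 and 11.8 ± 1.7 CPM (SD, n = 6 each). The log2 fold change was 0.45 (SE 0.14, 95% interval 0.16 to 0.74, unadjusted p = 0.00458) and did not pass at an adjusted p of 0.434 in edgeR. The two-sided exact permutation test over samples gave p = 0.00649, or 0.537 after adjustment over all genes tested. With 924 relabellings no gene could pass that adjustment. Over all alternatives, the adjusted p of PSMB10 lay between 0.04996 (edgeR with the replicate block) and 0.775 (edgeR without elmo1-/- sample 3).

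The level of PSMB10 was low. It rested on 121.97 to 303.7 expected counts in a sample, and its TPM was 8.87% ± 1.9 of that of PSMB7 in elmo1+/+ and 11.6% ± 1.7 in elmo1-/- samples. PSMB7 itself had a log2 fold change of 0.056 (95% interval -0.054 to 0.17). Of 19 listed genes of peptide presentation and interferon-gamma signalling, 15 were tested. In edgeR 0 had an unadjusted p under 0.05, beside 6.16% of all genes tested. After adjustment 0 passed in edgeR and 0 in DESeq2, beside 0.234% and 0.444% of genes. With 15 genes and such shares, these counts do not set the list apart from the other genes tested. Its median log2 fold change was 0.047, with a range of -0.29 to 0.30.

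Leukocyte markers lay beside PSMB10 as follows. The 5 matched macrophage markers, of which 4 had a median of at least 10 counts, summed to between 6.65 and 9.71 TPM in elmo1+/+ and between 6.75 and 14.3 TPM in elmo1-/- samples. The 2 matched neutrophil markers summed to between 35.9 and 53.9 TPM and between 40.2 and 77.9 TPM, and the 5 of lymphocytes and thymus to between 5.25 and 6.48 TPM and between 4.33 and 5.68 TPM, in the same order. The neutrophil sum was almost only lyz, at means of 43.6 and 53.7 TPM beside 0.71 and 0.72 for mmp13a. Markers within a sum moved in both directions, with log2 fold changes of -0.14 (marco) to 0.51 (an MPEG1 identifier) in macrophages. In lymphocytes and thymus they ran from -0.97 (lck) to 0.098 (foxn1). 0 of these markers passed in edgeR, beside 0.234% of all genes tested, and the genotypes overlapped in each sum. The part of leukocyte number in the value of PSMB10 was not tested.

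Among the other members of the 20S core, none had an unadjusted p under 0.05. The lowest, median and highest values of PSMA8, the most abundant alpha subunit, were 74.6, 79.3 and 85.2 CPM in elmo1+/+ and 75.5, 80.0 and 82.9 CPM in elmo1-/- samples, with a log2 fold change of -0.00072 (95% interval -0.10 to 0.098). PSMA4 had the highest fold change of the alpha ring at 0.029 (95% interval -0.15 to 0.20), a value that turned to -0.022 on log2(TPM + 1), and psma6l the lowest at -0.031. PSMB2 ranged over 64.8 to 78.6 CPM in elmo1+/+ and 62.7 to 78.4 CPM in elmo1-/- samples, with a log2 fold change of 0.035 that turned to -0.010 on log2(TPM + 1). Without PSMB4, the 16 alpha and constitutive beta members had log2 fold changes between -0.036 and 0.056. Leaving out the low-count psma6l as well, their 95% intervals reached from -0.18 to 0.21 at the widest.

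All 21 members of the 19S particle had a log2 fold change within 0.1 of 0, and 0 had an unadjusted p under 0.05. The ATPase PSMC2 had the lowest, at -0.092 (95% interval -0.21 to 0.028, adjusted p = 0.928, edgeR), from 51.4, 57.1 and 60.9 CPM in elmo1+/+ to 49.7, 52.8 and 58.4 CPM in elmo1-/- samples as lowest, median and highest. PSMC6 had the highest of the ATPases at 0.057. PSMC5, the ATPase with the highest TPM of a single gene, was at 0.054. Of the non-ATPases, the ubiquitin receptor PSMD4 was highest at 0.077 and one of the PSMD2 identifiers (ENSDARG00000099653) lowest at -0.085, with the other PSMD2 at -0.058. PSMD3, the most abundant by TPM, lay between 91.6 and 111.97 CPM in elmo1+/+ and between 98.1 and 108.8 CPM in elmo1-/- samples. The 95% intervals of all 21 together reached from -0.25 to 0.23.

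The assembly chaperones, activators and the inhibitor were less abundant, between 4.02 and 28.0 TPM, and 0 of 12 had an unadjusted p under 0.05. PSMG1, which with PSMG2 forms a chaperone of the alpha ring, was the most abundant chaperone at 28.0 TPM, with a log2 fold change of 0.046. PSMD10 (gankyrin), a chaperone of the ATPase ring, was lowest at -0.15 (95% interval -0.35 to 0.055), with 5.84, 6.75 and 7.68 CPM in elmo1+/+ and 5.05, 6.11 and 7.04 CPM in elmo1-/- samples. Among the activators, PSME3 (PA28 gamma), the nuclear 11S activator, was the most abundant at 21.6 TPM and the lowest in fold change at -0.072. PSME1 and PSME2, the interferon-inducible subunits of the other 11S activator, stood at 15.002 and 4.26 TPM, with log2 fold changes of 0.025 and 0.049. One of the PSME4 (PA200) identifiers (ENSDARG00000087911) was highest at 0.18 (95% interval -0.13 to 0.49), with 17.2, 20.4 and 28.9 CPM in elmo1+/+ and 16.1, 23.8 and 32.8 CPM in elmo1-/- samples. PSMF1, the inhibitor PI31, was at 0.064, with 10.8 to 13.8 CPM in elmo1+/+ and 12.02 to 13.7 CPM in elmo1-/- samples. The 2 members that match only in name, PSMC3IP and PSME3IP1, had log2 fold changes of 0.15 and 0.053.

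In scaled CPM, the 20S and 19S members were high or low together in some samples of both genotypes, but not in all. In elmo1-/- sample 6, all 17 alpha and constitutive beta members and all 21 members of the 19S particle were above their own mean over the 12 samples. In elmo1+/+ sample 4 this held for 14 of 17 and 21 of 21, and in elmo1+/+ sample 6 for 15 and 19. At the other end, elmo1+/+ sample 2 had 2 of 17 and 0 of 21 members above their mean, and elmo1-/- sample 1 had 0 and 2. The particles parted in elmo1+/+ sample 3 (5 of 17 and 15 of 21), elmo1+/+ sample 5 (13 and 8) and elmo1-/- sample 3 (9 and 4). High and low samples thus occurred in both genotypes in CPM. In TPM, elmo1-/- sample 6 was not the highest, at 84.2 for the median 20S position and 51.1 for the median 19S position. The highest were elmo1-/- sample 5 for 20S (89.7 TPM) and elmo1+/+ sample 4 for 19S (59.1 TPM). The TMM scaling factor of elmo1-/- sample 6, 0.949, was the lowest of all samples.

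These shifts are given beside the genotype differences in the mean over the 17 alpha and constitutive beta or the 21 19S members. A range over single samples cannot be smaller than the difference of means of those samples, so no conclusion is drawn from their sizes. The genotype differences of some members were larger than those of the means, with PSMB4 at -0.22 and PSMB10, not among the 17, at 0.45. The mean centred log2 CPM of the 19S members reached from -0.16 to 0.12 in elmo1+/+ and from -0.10 to 0.14 in elmo1-/- samples, and that of the 20S members from -0.10 to 0.098 and from -0.10 to 0.13. The genotype means were 0.0014 and -0.0014 for the 19S and 0.0011 and -0.0011 for the 20S members, in the order elmo1+/+ and elmo1-/-. They mirror each other because each member was centred over all 12 samples. Of all tested genes with a mean between 20 and 150 CPM, between 45.3% and 57.7% were above their own mean in a sample, a share that scaling and centring hold near the middle. It was 53.6% in elmo1+/+ sample 6 and 51.0% in elmo1-/- sample 6.

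**Figure D4:**
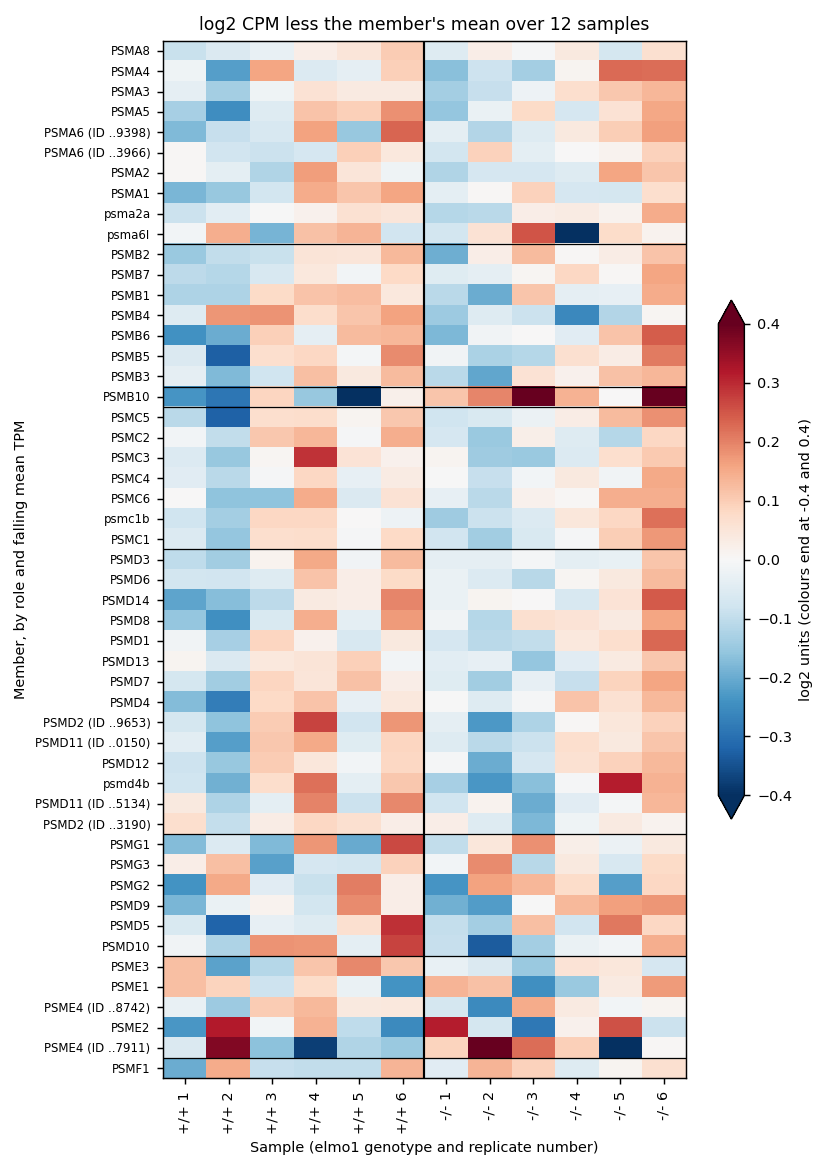
log2 CPM of each of the 51 proteasome members (rows, by role) in each of the 12 samples (columns), less the member's mean over the samples. The rows of the 20S and 19S members are red throughout in elmo1-/- sample 6 and blue for most in elmo1+/+ sample 2 and elmo1-/- sample 1; the rows of chaperones, activators and the inhibitor are more mixed, with 10 of 12 above their mean in elmo1-/- sample 6 and 6 of 12 in elmo1+/+ sample 2.

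Of the 12 chaperones, activators and the inhibitor, 10 were above their own mean in elmo1-/- sample 6, 9 in elmo1+/+ sample 6 and 3 in elmo1-/- sample 1, like the 20S and 19S members. In elmo1+/+ samples 2 and 4, low and high in the 20S and 19S members, 6 of 12 were above their mean in each. The total expected count was 21109546 in elmo1-/- sample 6, 20991786 in elmo1+/+ sample 4 and 21072869 in elmo1+/+ sample 2. The share of counts in the 20 most abundant genes was 19.1%, 17.7% and 17.7% in these samples, and 17.0% to 19.1% over all samples. Depth was thus alike in high and low samples, while that share was the highest of all samples in elmo1-/- sample 6 and among the lowest in the other two. The part of tissue makeup in the pattern was not tested.

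**Figure D5:**
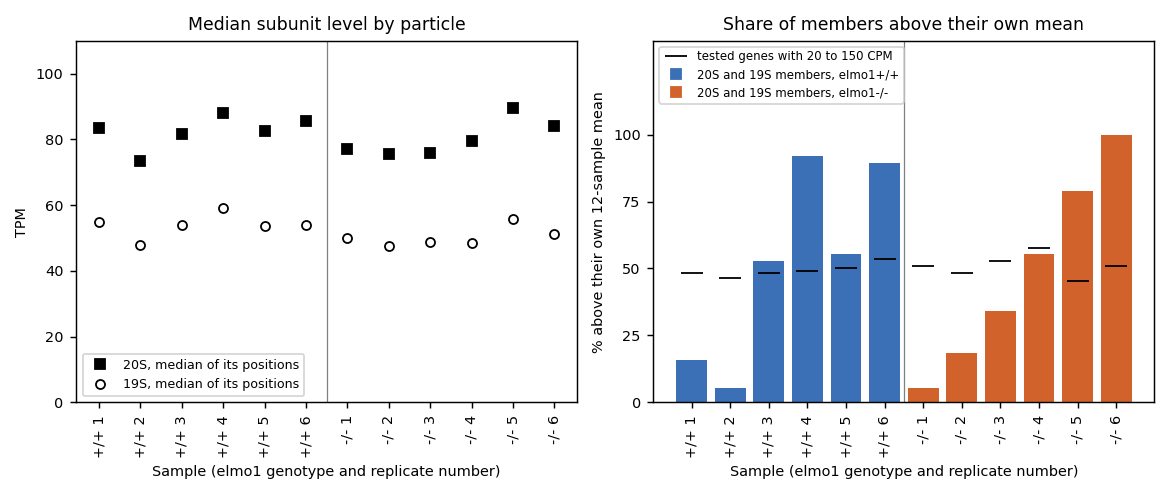
Left, the median TPM over the positions of the 20S core (filled squares) and of the 19S particle (open circles) in each sample. Right, the percentage of the 38 20S and 19S members, pooled, above their own 12-sample mean of log2 CPM in each sample (bars, blue elmo1+/+, orange elmo1-/-). Black lines give that of all tested genes with 20 to 150 CPM. Bars span 5.26% to 100%, lines 45.3% to 57.7%.

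Genes that work with the proteasome were taken from 6 lists: partner proteins, transcription of proteasome genes, ubiquitin and its activation, shuttle factors and p97, peptide presentation, and the muscle atrophy ligases. Of 60 genes tested in these lists, 0 passed in edgeR and 1 passed in DESeq2, beside 0.234% and 0.444% of all genes. An unadjusted p under 0.05 in edgeR was found for 5 (8.33%), beside 6.16% of all genes tested. Among 13 genes of the transcription list, which holds the copies of NRF1 (nfe2l1), the activator of proteasome genes on proteasome inhibition, 0 had an unadjusted p under 0.05 and the median log2 fold change was -0.044. The 3 atrophy ligases tested had log2 fold changes between 0.20 and 0.49, with 0 at an unadjusted p under 0.05.

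The 5 genes with an unadjusted p under 0.05 were named after their values were seen. The polyubiquitin identifiers ubb and UBB were among them, while ubc, the most abundant polyubiquitin gene at 867 and 809 TPM in elmo1+/+ and elmo1-/- samples, had a log2 fold change of -0.057 (95% interval -0.25 to 0.14). The gene ubb lay at 119, 153 and 248 CPM as lowest, median and highest in elmo1+/+ and at 239, 260 and 325 CPM in elmo1-/- samples. On the log2 scale it was 0.71 higher, at an adjusted p of 0.121 in edgeR, and it is the gene that DESeq2 called, at an adjusted p of 0.00209. The edgeR fits with the replicate block and without elmo1+/+ sample 3 called ubb too, at adjusted p-values of 0.0330 and 0.00740. The second identifier, UBB, had a log2 fold change of 0.33 (adjusted p = 0.324, edgeR; 0.0904, DESeq2), and as polyubiquitin genes share sequence, the counts of both are uncertain. ECPAS, which ties the proteasome to other cell compartments, was at -0.23, the peptidase TPP2, which trims products of the proteasome, at -0.26, and the shuttle factor RAD23B at -0.10, with adjusted p-values in edgeR above the threshold. The genotypes overlapped in CPM for all 5.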

How the data were processed

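Libraries from pools of 30 larvae (120 hpf) were run on a BGISEQ-500. The submitters' processing notes name Trim Galore 0.6.4, kallisto 0.4.6 and the build GRCz11; annotation and filters are not given in the sources used here. The authors deposited, per sample, an expected count and a TPM value for 32520 genes. The design had assumed whole counts. As 38.0% to 39.6% of the deposited expected counts in a sample are not whole, they were rounded for count tests. Estimated counts divide reads among gene copies, and TPM values depend on the effective length assigned per sample.

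Symbols came from a table of Ensembl identifiers; upper-case symbols are orthologue names that copies can share. Genotype came from the titles. Genes were filtered with filterByExpr (21830 kept), scaled with TMM factors and compared with edgeR 4.0.16 (R 4.3.3), quasi-likelihood test, Benjamini-Hochberg adjustment, threshold 0.05. On simulated data the test recovered 93.8% of changes of 1 log2 unit. The members' log2 fold changes were smaller, and changes of their size were not simulated. Single values were compared with exact permutation tests over 924 relabellings (SciPy 1.17.1). Alternatives were other scaling factors, DESeq2 1.42.0, limma-trend 3.58.1 on TPM with pseudocounts of 1 or 0.1, other filters on low values, the replicate block and leaving out each sample. Depth was 20784515 to 21808513 counts per sample, and the SEs of the members were between 0.046 and 0.19.

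Named members are those called, those whose genotypes did not overlap in CPM, and in each role the member with the highest TPM, the highest and the lowest log2 fold change. Members and lists were chosen with earlier results of these data known. Chromosomes are by symbol in RefSeq's GRCz12tu, with no coordinates. Promoter motifs were not analysed here.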

Additional observations from a re-analysis of the deposited data

Results flagged for a closer look

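In 46 sets of 6 values (one genotype of one measure), 2 had a sample that stood apart from the others by Dixon's criterion at the 95% level, where chance gives about 1 in 20, or 2.3. PSMD3, the most abundant 19S subunit by TPM, was at 108.8 CPM in elmo1-/- sample 6, while the other elmo1-/- samples lay between 98.1 and 100.3 CPM. That sample was also the one with all 38 members of the 20S core and 19S particle above their own mean in CPM. In TPM its group lay between 67.1 and 74.3. The PSME4 identifier ENSDARG00000087911 was at 28.9 CPM in elmo1+/+ sample 2, while the other elmo1+/+ samples lay between 17.2 and 21.5 CPM.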

How the results depend on the processing

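The number of members called was 0 in edgeR and 1 on log2(TPM + 1), 1 on log2(TPM + 0.1) (PSMB4 both times, log2 fold changes -0.26 and -0.26) and 1 with the replicate block (PSMB10, 0.46, adjusted p = 0.04996). It was 0 in all fits that left out 1 sample. The number of all genes called was 51 in edgeR, 97 in DESeq2, 31 on log2(TPM + 1) with a TPM of at least 1 in 6 samples, 60 with the replicate block, and 34 to 67 when a sample was left out. In the companion lists 0 genes were called in edgeR, 1 in DESeq2, 1 with the replicate block and 0 to 1 when a sample was left out (1 without elmo1+/+ sample 3). The gene was ubb each time. Same-numbered samples of both genotypes correlated in their deviations by -0.033 to 0.30, with a mean of 0.13, and not all above 0.1. For 4 of 6 elmo1+/+ samples, the elmo1-/- sample that correlated best had the same number. These values do not settle whether the numbers pair the samples, and the main fit left the numbers out.

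Among the named members, direction turned in those close to 0. PSMA4, at 0.029, was at -0.0039 without scaling factors (chosen after seeing the data) and at -0.022, -0.023 and -0.022 in the 3 TPM fits, and PSMB2, at 0.035, at -0.010 in all 3. When 1 sample was left out, PSMA4 ranged from -0.022 to 0.065, PSMA8 from -0.020 to 0.020, PSMD3 from -0.046 to 0.015 and psma6l from -0.088 to 0.042, while PSMB4 stayed between -0.25 and -0.19 and PSMB10 between 0.35 and 0.52. The cause was not tested. The median of all genes was -0.030 without scaling factors and -0.038 on log2(TPM + 1). By CPM in place of TPM, 0 of 14 and 1 of 17 positions had the same rank, as CPM is not divided by length. When a sample was left out, 12 to 14 and 11 to 17 positions kept their rank by TPM, 11 without elmo1-/- sample 5. Depth gave no fold change for the 6 beta genes under the minimum, and psma6l and PSMC3IP rested on 44 to 72 and 34 to 89 counts per sample. The motif search planned for promoters was not run, as no promoter sequences were used here.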
